A study of Mus musculus with 4 samples.

Results

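Genes of the germline, of meiosis and of the piRNA pathway were examined in mouse embryonic stem (mES) cells depleted of Zfp322a, a zinc finger protein. The members were 57 listed genes, taken by symbol or synonym from the platform annotation. Of these, 55 had a probe set with that single gene symbol, 74 probe sets in all, out of 18193 genes and 45037 probe sets on the array, and Nanos2 and Nanos3 were not analysed here. They were grouped by role into germ cell specification and maintenance (8 genes measured), meiosis (19), the piRNA pathway (14), the oocyte (8) and other genes of male germ cells (6).

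Germ cells are set aside early in the embryo, when factors such as PRDM1 start the germ cell programme, and they are then kept by RNA-binding proteins such as DAZL, DDX4, DND1 and the NANOS family. In meiosis, homologous chromosomes are held together by the synaptonemal complex while SPO11-induced breaks are repaired by recombination. The piRNA pathway loads small RNAs onto PIWI proteins and silences transposons in germ cells. Some genes of these programmes, Dazl and Sycp3 among them, are known to be transcribed in mES cells grown with serum, where DNA methylation and a non-canonical Polycomb complex with MGA, MAX and an E2F factor keep many others low.

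RNA came from E14 cells, a mES cell line grown in medium with serum and LIF. A total of 4 Affymetrix arrays were hybridised, 1 per sample. In 2 samples the cells carried a plasmid for an shRNA against Zfp322a (Zfp322a RNAi), and in 2 samples they carried pSuper.puro as a mock knock-down (control RNAi), with puromycin selection for 3 days in both groups per the labels. The labels name the vector alone for the control, whereas the study's methods speak of a control shRNA plasmid, so that it is uncertain whether control cells expressed a hairpin. The sources used here do not say which of the study's Zfp322a shRNAs was put on the arrays. Separate cultures are not named in the labels for the replicates, and the spread behind each p-value may thus be technical. In bulk RNA, fewer cells that express a gene and less of its RNA per cell cannot be told apart.

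All levels below are log2 RMA values of single arrays, and all changes are log2 differences, Zfp322a RNAi minus control RNAi, with the standard error of limma after the ± sign (n = 2 arrays per group). A gene was called up-regulated or down-regulated where limma's Benjamini-Hochberg adjusted p over all 18193 genes was below 0.05. Since probe sets differ in brightness, genes were not ranked by level, and the median level of genes was used only to mark off dim probe sets. The brighter of the 2 probe sets of Zfp322a read 8.75 and 8.84 in control cells and 7.53 and 7.13 in knock-down cells. That left 36.2% of the control level (-1.47 ± 0.14, adjusted p = 0.00158 with limma), and the dimmer probe set is not reported here. Actb, a housekeeping gene, did not pass the test (-0.16 ± 0.07, adjusted p = 0.150 with limma). Array medians lay between 6.07 and 6.11. The 10 ES cell markers, Pou5f1, Nanog and Sox2 among them, all lay above the median level of genes, and 3 of them (Tdgf1, Utf1 and Esrrb) were down-regulated. At or above that level 44.0% of all genes were called. A further probe set of Utf1 also fell (-0.94), while another (0.09) and those of Esrrb (-0.28 and -0.25) did not pass.

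Of the 55 members measured, 18 were up-regulated, 10 were down-regulated and 27 did not pass the test. Across all genes 14% were called higher and 14.4% lower, 28.4% in either direction, against 50.9% of the members in either direction. The members were chosen with earlier results of these data known, and an excess of calls, here or by level or class, was not tested. The median change of the members was 0.02, and that of all genes was -0.04. With any 1 of the 4 arrays left out, limma called 0 of all genes and 0 members, while 23 to 29 of the 55 members and 5147 to 5769 of the 18193 genes had an unadjusted p below 0.05. The direction of all 28 called members was kept. Members at or above the median level of genes were called in 17 of 30 cases, where the background at that brightness was 44.0%, and members below it in 11 of 25 cases, where the background was 12.7%. For 42 members every knock-down array lay on one side of both control arrays, 24 above and 18 below, as was the case for 62.6% of all genes (26.8% above and 35.8% below). By size alone, 8 members were at least 1.5-fold higher and 3 at least 1.5-fold lower (background 5.06% and 3.20%), and all 11 also passed the test, as 5.03% and 3.18% of all genes did.

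**Figure D1:**
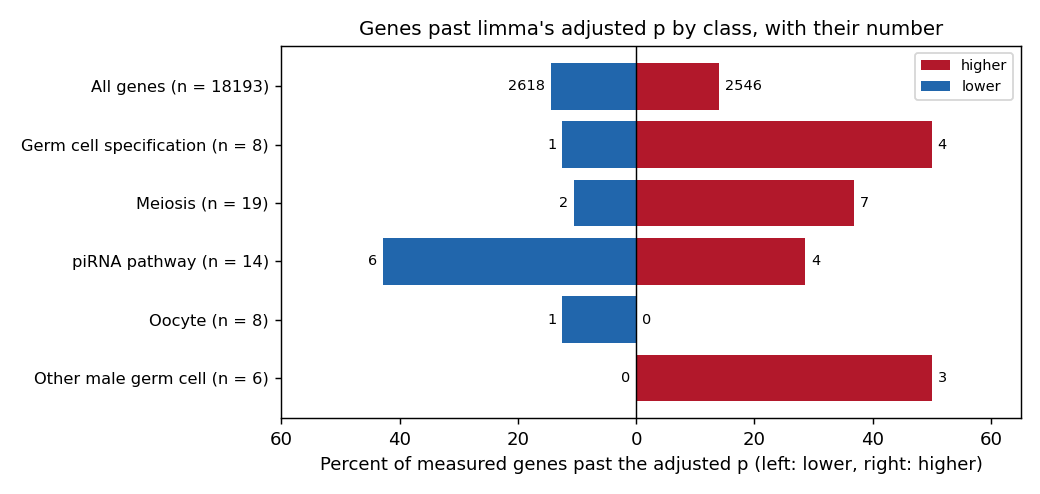
Percent of measured genes past limma's adjusted p of 0.05 on the x axis, to the right for genes higher and to the left for genes lower in Zfp322a RNAi cells, for all 18193 genes and for each class of members, with the number of genes at the bar ends. The bars of germ cell specification and meiosis reach farther right than left (4 against 1 and 7 against 2 genes), that of the piRNA pathway reaches farther left (6 against 4), and the oocyte class has 1 call.

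Among genes of germ cell specification, Dazl, Ddx4, Dnd1 and Kitl were higher and Prdm1 was lower. Dazl, whose protein promotes translation of germ cell mRNAs, read 11.54 and 11.44 in control cells and 12.20 and 12.24 in knock-down cells. It rose 1.66-fold (0.73 ± 0.07, adjusted p = 0.00187 with limma), and its other probe set rose by a like amount (0.74). Kitl, the ligand of the KIT receptor that germ cells need to survive and migrate, read 5.83 and 6.08 in control cells and 7.06 and 6.93 in knock-down cells (2.06-fold, 1.04 ± 0.11, adjusted p = 0.00194 with limma). For both genes each knock-down array lay above each control array, as for 26.8% of all genes. Kitl was measured by 3 more probe sets, and these did not pass the test over all probe sets (0.62, 0.07 and -0.11), so that its rise rests on the brightest one.

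The RNA helicase gene Ddx4 (0.57 ± 0.09) and Dnd1, which encodes an RNA-binding protein required by primordial germ cells (0.57 ± 0.08), were up-regulated 1.48-fold each. Prdm1, the transcriptional repressor that begins the germ cell programme, was down-regulated to 74.7% of the control level (-0.42 ± 0.08, adjusted p = 0.0144 with limma). The receptor gene Kit did not pass the test (0.12, 95% confidence interval -0.05 to 0.28), and neither did Nanos1 (-0.11) or the interferon-induced transmembrane gene Ifitm5 (-0.18). In this class 4 genes rose, 1 fell and 3 did not pass (62.5% called, against 28.4% of all genes).

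The same functions were followed in 15 further genes of germ cell specification that are no members. Of these, 4 rose, 5 fell and 6 did not pass, with a median change of -0.09. Ifitm3, a surface marker gene of early germ cells (-0.75 ± 0.07), and its relative Ifitm1 (-0.35 ± 0.07) fell, whereas Dppa2 (0.58 ± 0.07) and Klf2 (0.52 ± 0.07) rose.

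**Figure D2:**
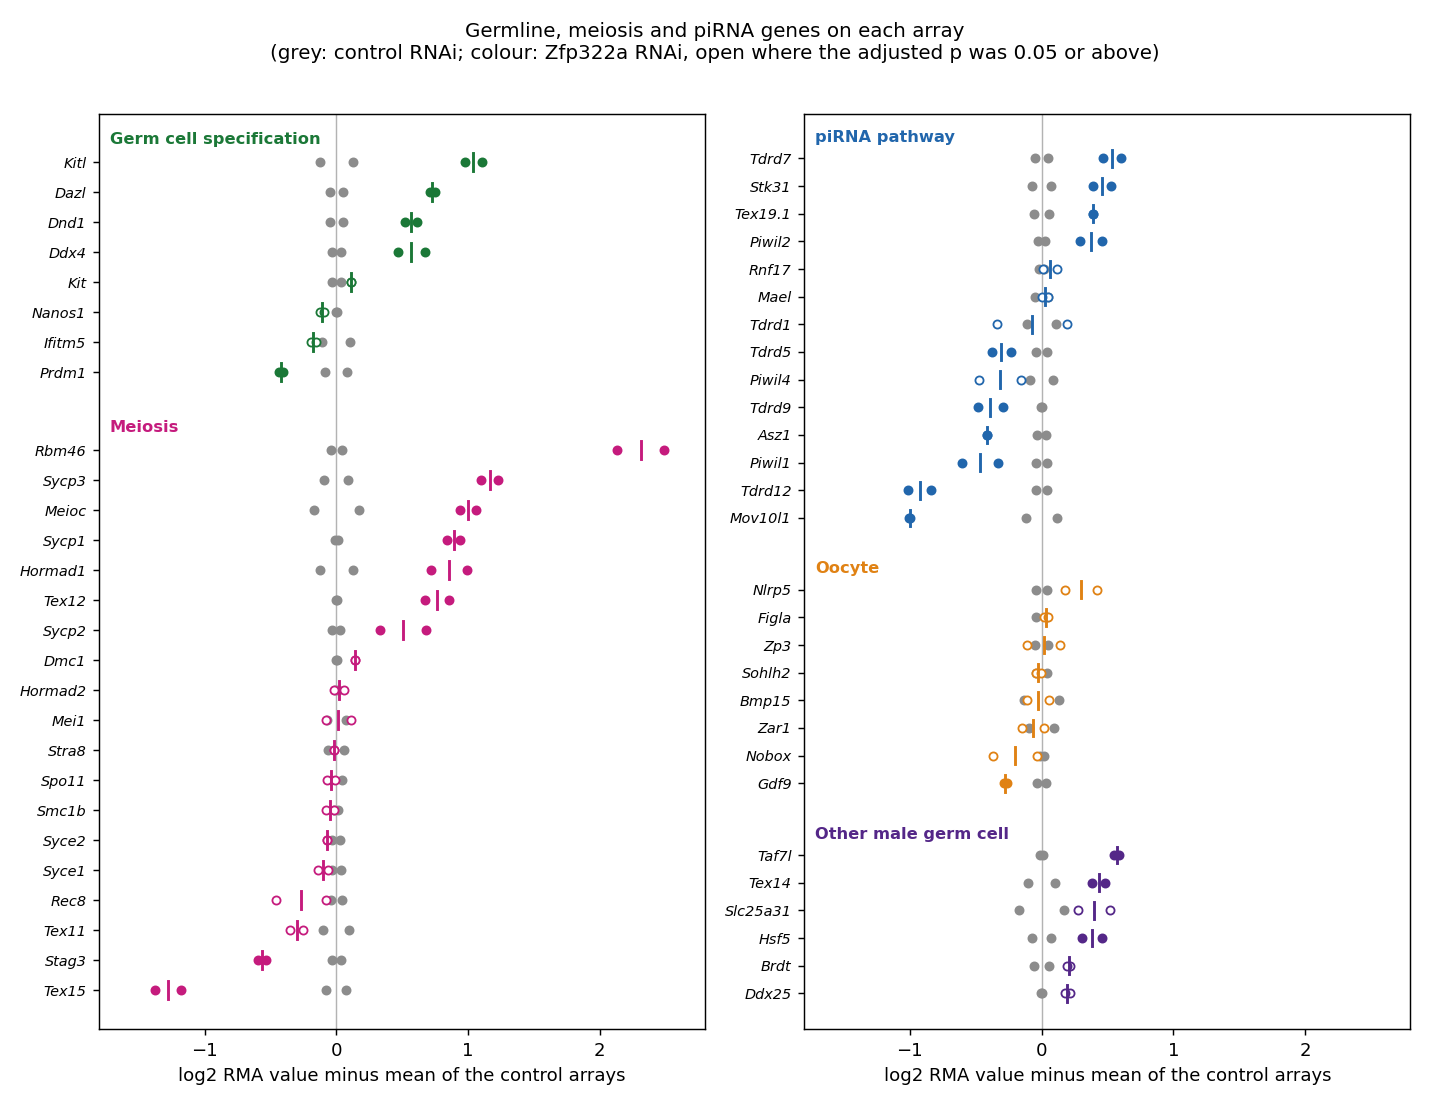
Distance of every array from the control mean in log2 RMA units (x axis) for each of the 55 members (y axis), by class. Grey points are control RNAi arrays, coloured points are Zfp322a RNAi arrays (filled where the gene passed limma's adjusted p of 0.05, open where it did not) and short lines are the mean changes, which run from -1.28 for Tex15 to 2.31 for Rbm46.

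Meiotic genes held the largest changes of the members. Rbm46, an RNA-binding protein gene needed for entry into meiosis, read 5.13 and 5.21 in control cells and 7.66 and 7.30 in knock-down cells, a 4.96-fold rise (2.31 ± 0.13, adjusted p = 7.38e-04 with limma). Its dimmer probe set rose as well (1.52). Both control values of the brighter one lay below the control array medians (6.11 and 6.10), so that the fold size rests on a dim baseline. Meioc, whose protein acts with YTHDC2 and RBM46 on mRNAs at the start of meiosis, read 8.16 and 7.82 against 9.05 and 8.93 (2.0-fold, 1.0 ± 0.12). Ythdc2, which is no member, read 7.92 and 7.78 in control cells and 8.86 and 8.74 in knock-down cells (1.93-fold, 0.95 ± 0.08, adjusted p = 0.00150 with limma). For all 3 genes of this complex both knock-down arrays lay above both control arrays, as for 26.8% of all genes. Stra8, the retinoic acid-responsive gene that switches cells into meiosis, did not pass the test (-0.02, 95% confidence interval -0.20 to 0.16).

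Genes of the chromosome axis and of the synaptonemal complex went up in part. Sycp3, which encodes a protein of the chromosome axis, read 10.11 and 9.93 in control cells and 11.25 and 11.12 in knock-down cells (2.24-fold, 1.17 ± 0.09, adjusted p = 0.00120 with limma). Sycp1, the gene of the transverse filament that joins the axes, read 6.59 and 6.57 against 7.52 and 7.42 (1.85-fold, 0.89 ± 0.07). Hormad1, whose protein marks unsynapsed axes, read 8.28 and 8.03 against 9.15 and 8.87 (1.81-fold, 0.86 ± 0.13).

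Tex12, a gene of the central element, read 6.98 and 6.97 in control cells and 7.83 and 7.65 in knock-down cells (1.70-fold, 0.77 ± 0.08). Each of these 4 genes lay higher on both knock-down arrays than on either control array, as did 26.8% of all genes. Sycp2, the partner of Sycp3 in the axis, rose 1.42-fold (0.51 ± 0.12, adjusted p = 0.0285 with limma), with knock-down arrays at 7.09 and 6.74, and its change was 0.33 without Zfp322a RNAi replicate 1. Other central element genes did not follow Tex12. Syce1 (-0.10) and Syce2 (-0.07) did not pass the test, and Syce3, which is no member, fell from 7.45 and 7.39 to 6.46 and 6.50 (52.1% of the control level, -0.94 ± 0.07). Hormad2 (0.02) and Tex11 (-0.30, adjusted p = 0.0600 with limma) did not pass.

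Of the cohesin and recombination genes among the members, Stag3 and Tex15 fell and the others did not pass. Stag3, a meiotic cohesin subunit gene, was down-regulated to 67.6% of the control level (-0.57 ± 0.07, adjusted p = 0.00345 with limma), while the cohesin genes Smc1b (-0.05) and Rec8 (-0.27, with knock-down arrays at 5.99 and 6.37) did not pass. Tex15, needed for meiotic recombination and for silencing of transposons in male germ cells, had the largest fall of the members. It read 8.62 and 8.77 in control cells and 7.52 and 7.32 in knock-down cells, 41.3% of the control level (-1.28 ± 0.10, adjusted p = 0.00113 with limma). Spo11, the gene of the enzyme that cuts DNA to start recombination, did not pass (-0.04, 95% confidence interval -0.22 to 0.14), nor did Mei1 (0.02) or the strand exchange gene Dmc1 (0.15, 95% confidence interval -0.02 to 0.31). In all, 7 meiotic genes rose, 2 fell and 10 did not pass (47.4% called, against 28.4% of all genes).

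Among 27 further meiotic genes 7 rose, 8 fell and 12 failed the test, with a median change of -0.02. The share called was 55.6%, against 28.4% of all genes. Ccnb1ip1, which encodes a protein that matures crossovers, rose 1.93-fold beside Ythdc2 (0.95 ± 0.07), and Syce3 had the lowest p of the falls. The cohesin genes Stag2 (0.52 ± 0.08) and Rad21 (0.43 ± 0.11), which also serve in mitosis, rose, while Smc1a (-0.18) and Smc3 (0.19) did not pass.

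Promoters are shown for the 5 meiotic genes that rose past 1.5-fold and whose windows held both an E-box, the motif known to be bound by MGA and MAX, and an E2F-type motif. Meioc, which rose as well, held the E2F-type motif without an E-box. The windows are from RefSeq (build GRCm38.p6), run from 250 bases before to 50 bases after the annotated start and are written 5′ to 3′ on the strand of the gene. Capitals mark the E-box CACGTG and the E2F-type motif GCGGGA, which on the other strand reads TCCCGC. The windows are chr3:82876434-82876733 (minus strand) for Rbm46, chr3:102936051-102936350 (minus strand) for Sycp1, chr10:88459337-88459636 (plus strand) for Sycp3, chr3:95559427-95559726 (plus strand) for Hormad1 and chr9:50561219-50561518 (minus strand) for Tex12.
Rbm46: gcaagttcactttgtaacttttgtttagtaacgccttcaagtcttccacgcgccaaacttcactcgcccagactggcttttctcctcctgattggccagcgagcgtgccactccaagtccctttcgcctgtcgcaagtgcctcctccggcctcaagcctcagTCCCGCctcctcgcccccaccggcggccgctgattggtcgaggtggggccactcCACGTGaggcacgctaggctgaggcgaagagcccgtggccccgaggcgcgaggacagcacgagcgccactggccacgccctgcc
Sycp1: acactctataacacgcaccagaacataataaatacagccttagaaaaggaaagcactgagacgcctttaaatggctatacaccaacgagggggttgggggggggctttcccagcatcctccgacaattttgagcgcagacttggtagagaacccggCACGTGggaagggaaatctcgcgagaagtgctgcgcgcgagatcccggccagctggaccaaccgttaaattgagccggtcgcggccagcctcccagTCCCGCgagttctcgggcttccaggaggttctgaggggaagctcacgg
Sycp3: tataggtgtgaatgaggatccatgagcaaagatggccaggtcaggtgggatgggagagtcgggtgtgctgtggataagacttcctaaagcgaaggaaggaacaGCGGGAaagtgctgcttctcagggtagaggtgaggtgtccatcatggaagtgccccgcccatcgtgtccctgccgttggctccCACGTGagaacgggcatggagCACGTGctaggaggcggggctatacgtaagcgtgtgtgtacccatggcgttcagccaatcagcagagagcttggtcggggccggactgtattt
Hormad1: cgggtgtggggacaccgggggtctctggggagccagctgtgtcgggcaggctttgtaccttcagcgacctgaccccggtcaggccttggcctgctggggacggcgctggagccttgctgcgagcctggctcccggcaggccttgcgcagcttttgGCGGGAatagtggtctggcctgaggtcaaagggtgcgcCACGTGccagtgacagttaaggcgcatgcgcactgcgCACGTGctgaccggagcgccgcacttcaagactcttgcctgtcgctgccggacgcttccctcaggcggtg
Tex12: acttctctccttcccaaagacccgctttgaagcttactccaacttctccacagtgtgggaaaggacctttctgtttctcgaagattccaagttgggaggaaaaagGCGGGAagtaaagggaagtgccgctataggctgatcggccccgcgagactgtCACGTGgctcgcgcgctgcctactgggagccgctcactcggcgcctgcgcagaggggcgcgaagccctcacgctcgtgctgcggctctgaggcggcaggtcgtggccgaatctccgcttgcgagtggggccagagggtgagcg

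The windows of Sycp3 and Hormad1 held 2 E-boxes each and the other 3 held 1. A window was given for 48 of the 55 measured members, and a gene with several windows was counted once. The E-box was found in 19 of the 48 members (39.6%), against 8.09% of all 27025 genes with a window and 10.2% of those on the array. GCGGGA was found in 25 members (52.1%), against 22.0% of all genes and 32.9% of those on the array. Both motifs hold a CG step, and the part of CG content in these shares was not tested.

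The E-box stood in 8 of 16 members that rose, 4 of 8 that fell and 7 of 24 that did not pass the test. GCGGGA stood in 11 of 16 that rose, 2 of 8 that fell and 12 of 24 that did not pass. Its longer form GCGGGAA, which contains it, stood in 8, 2 and 4 of them, against 5.29% of all genes and 7.95% of those on the array. Both the E-box and GCGGGA stood in 6 of 16 that rose, 1 of 8 that fell and 5 of 24 that did not pass. The gene that fell with both was Stag3, and 3.65% of genes on the array with a window held both. Dazl, Sycp2 and Tdrd7 rose with neither motif in their windows. These matches are letters in a window, and binding was not measured.

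Among 14 genes of the piRNA pathway 6 were down-regulated, 4 were up-regulated and 4 did not pass (71.4% called, against 28.4% of all genes). By the 1.5-fold rule 2 were lower and 0 were higher. Mov10l1, which encodes the helicase that starts piRNA production, read 8.40 and 8.63 in control cells and 7.52 and 7.51 in knock-down cells, 50.0% of the control level (-1.0 ± 0.09, adjusted p = 0.00161 with limma). Tdrd12, a Tudor domain and helicase gene required for secondary piRNAs, read 7.80 and 7.88 against 7.0 and 6.83 (52.7%, -0.93 ± 0.09, adjusted p = 0.00156 with limma). Each knock-down array lay below each control array for both genes, as for 35.8% of all genes. The promoter window of Mov10l1, chr15:88982744-88983043 (plus strand), is shown as one of a gene that fell with an E-box, in capitals, and no GCGGGA, while the windows of Tdrd12 held neither motif.
Mov10l1: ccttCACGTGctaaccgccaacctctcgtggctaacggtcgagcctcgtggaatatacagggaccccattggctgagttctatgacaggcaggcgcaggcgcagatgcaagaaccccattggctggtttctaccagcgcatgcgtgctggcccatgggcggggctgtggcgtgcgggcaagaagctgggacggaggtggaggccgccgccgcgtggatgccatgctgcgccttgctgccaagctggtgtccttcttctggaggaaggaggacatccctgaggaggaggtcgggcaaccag

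Smaller falls were those of Piwil1, a PIWI protein gene of spermatocytes and spermatids (-0.47 ± 0.11), Asz1, whose protein sits between mitochondria and the piRNA granules (-0.42 ± 0.07), the helicase gene Tdrd9 (-0.39 ± 0.09) and Tdrd5 (-0.31 ± 0.08). The adjusted p of these 4 lay between 0.00817 and 0.0390 with limma. A dimmer probe set of Asz1 did not pass (-0.11). The call of Tdrd5 ended with each array centred on its median (adjusted p = 0.0592 with limma), and that of Asz1 with the mean of its probe sets (0.0604).

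Other piRNA genes rose. Tdrd7 (0.54 ± 0.08), the Tudor domain kinase gene Stk31 (0.46 ± 0.09), Tex19.1, which restrains retrotransposons in germ cells and in pluripotent cells (0.39 ± 0.07), and Piwil2, the PIWI gene of early male germ cells (0.38 ± 0.08), were up-regulated between 1.3-fold and 1.45-fold. A dimmer probe set of Tdrd7 did not pass (-0.08). Mael (0.03, 95% confidence interval -0.16 to 0.21), Tdrd1 (-0.08, 95% confidence interval -0.52 to 0.37), Piwil4 (-0.32) and Rnf17 (0.07) did not pass the test. Of the dimmer probe sets of Rnf17, 1 was higher by 0.57 and passed the test over all probe sets (adjusted p with limma 0.00791).

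Among 18 further piRNA pathway genes, 1 rose, 7 fell and 10 did not pass, and the median change was -0.17. The share called was 44.4%, against 28.4% of all genes and 44.0% of those at or above the median level. Only 4 of the 18 lay below that level. Gtsf1, a zinc finger partner of PIWI proteins, read 8.97 and 8.90 in control cells and 7.87 and 7.69 in knock-down cells (44.9%, -1.16 ± 0.09, adjusted p = 0.00112 with limma). That probe set is open to cross-hybridization, and the other one of Gtsf1 fell by 0.77. Gpat2 (-0.77 ± 0.08), Ddx6 (-0.53 ± 0.07) and Dnmt3l, the cofactor of DNA methylation in germ cells (-0.50 ± 0.07), also fell, though 2 other probe sets of Ddx6 did not pass (0.09 and -0.03).

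**Figure D3:**
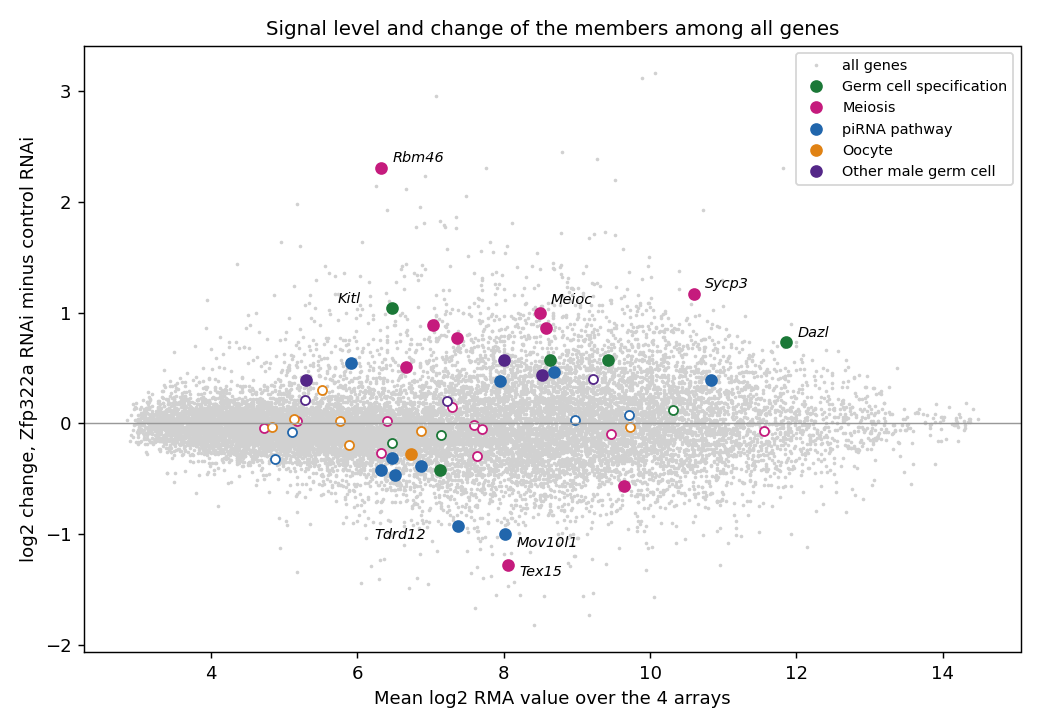
Mean log2 RMA value over the 4 arrays (x axis) and log2 change, Zfp322a RNAi minus control RNAi (y axis), of all 18193 genes in grey and of the 55 members in the colour of their class, filled where limma's adjusted p was below 0.05. Members called lie between levels of 5.30 and 11.86, and most oocyte genes lie near 0 change at levels below 7.07, the median of all genes.

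Genes of the oocyte showed 1 call among 8. Gdf9, a growth factor gene that oocytes secrete to their follicle, was down-regulated to 82.6% of the control level (-0.28 ± 0.07, adjusted p = 0.0318 with limma), and that call ended with array centring (0.0502). No difference was detected for the oocyte transcription factor genes Figla (0.04, 95% confidence interval -0.14 to 0.21), Nobox (-0.20, -0.49 to 0.09) and Sohlh2 (-0.03, -0.20 to 0.15). Zp3, the gene of a zona pellucida protein (0.02), Bmp15 (-0.03), the maternal gene Zar1 (-0.07) and Nlrp5 (0.30, adjusted p = 0.0727 with limma) did not pass either. Of these 8 genes 7 lay below the median level of genes, where 12.7% of all genes were called. The share called in this class, 12.5%, was near that background.

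Of 29 further oocyte genes, 0 rose, 6 fell and 23 did not pass, with a median change of -0.08. The share called was 20.7%, against 28.4% of all genes. Of the 29, 25 lay below the median level, where 12.7% of all genes were called. Khdc3, which encodes a part of the subcortical maternal complex of the egg, read 10.52 and 10.64 in control cells and 9.52 and 9.41 in knock-down cells (46.2%, -1.12 ± 0.08, adjusted p = 0.00108 with limma). Ooep, of the same complex (-0.30 ± 0.07), and the NLRP genes Nlrp4f (-0.92 ± 0.08) and Nlrp14 (-0.73 ± 0.14) fell as well, whereas Nlrp5, a core part of that complex, is given above with no call.

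By their brightest probe sets, all 6 other genes of male germ cells lay higher on both knock-down arrays, as 26.8% of all genes did. Of these 6 genes, 3 passed the test (50.0%, against 28.4% of all genes in either direction). Taf7l, a germ cell form of a general transcription factor subunit, read 7.70 and 7.72 in control cells and 8.30 and 8.26 in knock-down cells (1.48-fold, 0.57 ± 0.07, adjusted p = 0.00282 with limma). Tex14, needed for the bridges between germ cells (0.44 ± 0.09), and the heat shock factor gene Hsf5 (0.39 ± 0.09) were up-regulated as well. Slc25a31, an ADP/ATP carrier gene of germ cells (0.40), Brdt, a bromodomain gene of spermatogenesis (0.21), and the helicase gene Ddx25 (0.20) did not pass, with adjusted p between 0.0812 and 0.0912 with limma. A further probe set of Brdt fell by 0.83 on the log2 scale and passed the test over all probe sets, so that the direction of Brdt is uncertain.

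Of 39 further genes of spermatids and testis, 4 rose, 3 fell and 32 did not pass, and 32 lay below the median level of genes. The share called was 17.9%, against 28.4% of all genes and 12.7% of those below that level. Pdha2, an intronless pyruvate dehydrogenase gene of the testis (1.07 ± 0.09), and Hspa2, a heat shock gene of meiotic germ cells (0.56 ± 0.07), rose. Ldhc, the testis lactate dehydrogenase gene (-0.75 ± 0.10), and the chaperone gene Clgn (-0.56 ± 0.08) fell.

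**Figure D4:**
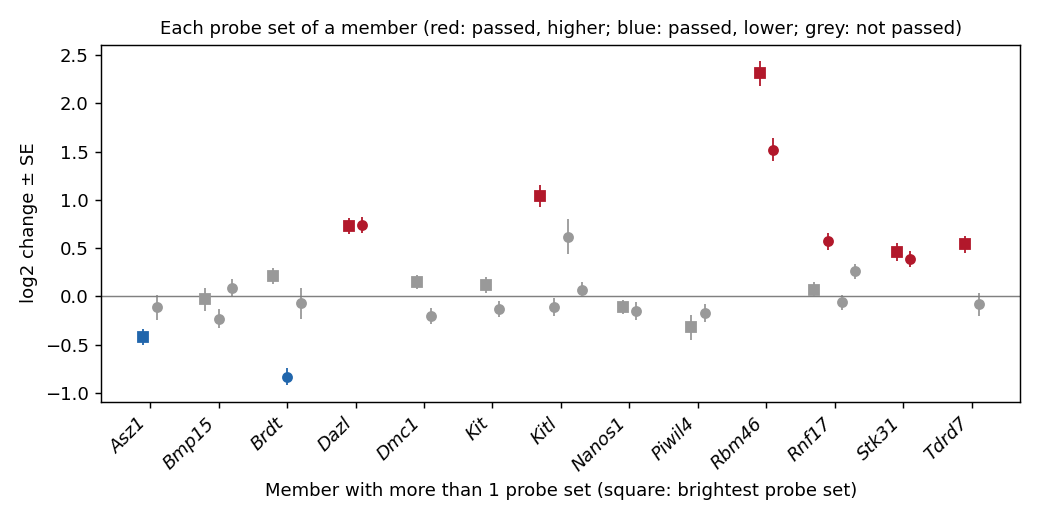
Log2 change ± SE of limma (y axis) of every probe set of the 13 members with more than 1 probe set (x axis), squares marking the brightest probe set, in red or blue where limma's adjusted p over all 45037 probe sets was below 0.05. Probe sets of Dazl, Rbm46 and Stk31 rose together, while Brdt has 1 that fell to -0.83 beside its brightest at 0.21.

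The 74 probe sets of the members were also tested each on its own, over all 45037 probe sets, of which 20.1% were called. In that test 22 probe sets of members were higher, 9 were lower and 43 did not pass. Of the 13 members with several probe sets, 4 (Brdt, Kitl, Rnf17 and Tdrd7) had 1 past the test and another with a change of the other sign, but 0 had probe sets past the test in opposite directions. The remaining 42 members rest on 1 probe set each.

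Genes that repress the germline programme in mES cells were set beside the members. Among the 27 on the array 6 rose, 8 fell and 13 failed the test, with a median change of -0.03. The share called was 51.9%, near the 44.0% of all genes at or above the median level. Only 2 of the 27 lay below that level. The Polycomb gene Rnf2 (0.80 ± 0.07), Yaf2 of the same complex (0.60 ± 0.07) and the DNA methyltransferase gene Dnmt3a (0.47 ± 0.07) rose, and Uhrf1, which guides maintenance of DNA methylation, fell (-0.45 ± 0.07). Further probe sets of Rnf2 ranged from -0.10 to 0.92, and those of Dnmt3a from -0.07, which did not pass, to 0.47. Of the genes for the factors named with the promoter motifs, Mga rose (0.39 ± 0.09, adjusted p = 0.0244 with limma), while Max (0.21) and E2f6 (0.23) did not pass. Mga has 5 probe sets, and its call rests on the brightest one, the only one reported here.

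**Figure D5:**
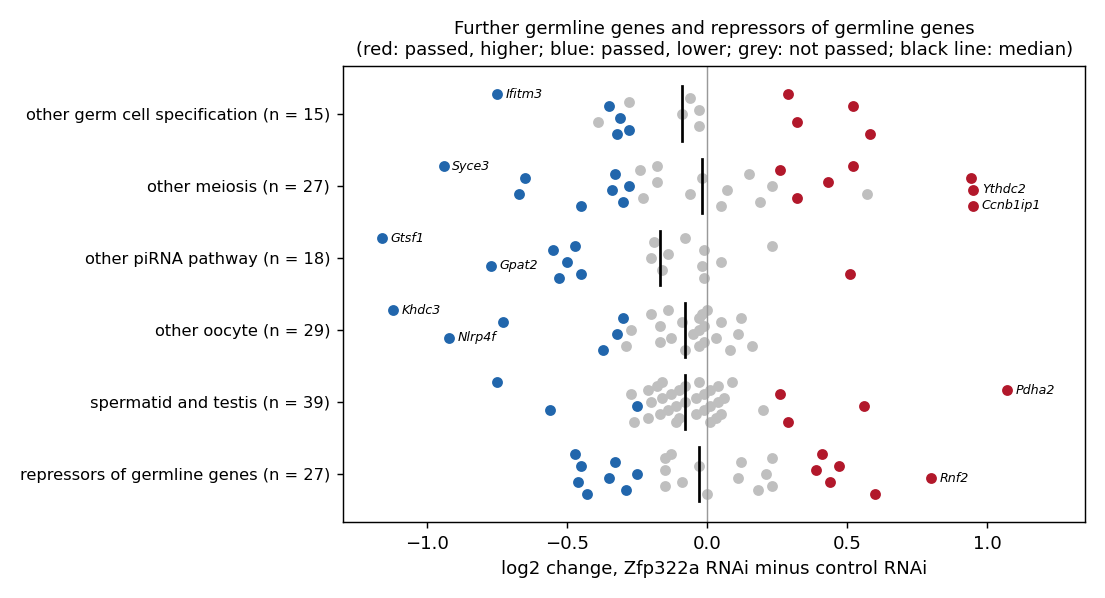
Log2 change, Zfp322a RNAi minus control RNAi (x axis), of single genes in 6 lists of further germline genes and of repressors of germline genes (y axis, with the number measured), in red or blue where limma's adjusted p was below 0.05. Black lines are list medians, which lie between -0.17 for the piRNA list and -0.02 for the meiosis list.

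Markers of other cell types were read on the same arrays. Of 10 primitive endoderm markers, 5 rose and 1 fell. Their mean log2 level went from 7.54 and 7.58 in control cells to 7.85 and 7.81 in knock-down cells. The calls of Pdgfra and Sox7 ended with the mean of their probe sets (adjusted p = 0.0770 and 0.130 with limma). Those of Sox7 and Sox17 ended with the replicate number as a block (0.0781 and 0.0557). Further probe sets of Gata6 (0.88) and Sox17 (1.25) also rose, while another of Gata6 (-0.24) did not pass. Of 7 markers of 2-cell-like cells, 5 rose and 0 fell, with mean levels of 8.81 and 8.81 against 9.43 and 9.32. For 10 Sertoli and granulosa cell markers, the somatic partners of germ cells, the mean level was 6.14 and 6.15 against 6.15 and 6.18, with 2 genes higher and 1 lower. Fibroblast and feeder markers had mean levels of 6.06 and 5.98 against 5.87 and 5.90, with 1 gene higher and 2 lower of 11. The part of these cell states in the changes of the members was not tested.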

How the data were processed

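The 4 RNA samples were each read on 1 single-colour Affymetrix array. The authors processed the arrays with RMA (version not given in the sources used here), and the deposited values are log2 levels with 2 decimals for 45037 probe sets. Because RMA equalizes the arrays, a shift shared by every gene could not be seen. The study's methods give a selection longer than the 3 days of the labels.

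Probe sets with 1 gene symbol (34945; 932 had several and 9160 none) were named through the platform annotation, with symbols updated by Entrez ID for 34741. Each of 18193 genes was represented by its brightest probe set. Groups were compared with limma 3.58.1, run under R 4.3.3 (moderated by eBayes, two-sided, 2 residual degrees of freedom), adjusted by Benjamini-Hochberg over all genes, after a test on simulated data. An exact permutation test cannot go below 0.333 with 2 against 2 arrays. The number of arrays limits the precision, with a median standard error of 0.08. The members and lists were chosen with earlier results of these data known. Named were all members past the adjusted p, those that define a class, those whose probe sets disagree, and up to 4 genes of the lowest p in each other list. Stag2, Rad21, Smc1a, Smc3, Mga, Max and E2f6 fall outside this rule and were named after their values were seen. The alternatives were array centring, repeated quantile normalization, other choices of probe set, a filter on dim genes, other variance models, a replicate block, the 1.5-fold rule of the study and leaving out each array.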

Additional observations from a re-analysis of the deposited data

How the results depend on the processing

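With all 4 arrays, the direction of all 28 called members held under every alternative run in which they could be measured. The variance models, the replicate block and the 1.5-fold rule leave the change itself as it was, so that no direction could turn there. The 18 rises and 10 falls stayed within 1.5 times of these numbers under array centring, repeated quantile normalization, other choices of probe set, a variance trend and a robust variance. With dim genes left out (30 members tested) 6 fell, 2 of them piRNA genes. There 0 oocyte genes were called, since Gdf9 (mean level 6.73) was itself left out as dim. Gdf9 was tested and did not pass with array centring and with every probe set as a feature. The 1.5-fold rule without a test gave 8 rises, 2 of them in germ cell specification and 0 each in the piRNA and other male germ cell classes, and 3 falls, 1 in meiosis, 2 in the piRNA pathway and 0 in germ cell specification and the oocyte. The titles do not state that the same replicate numbers pair the samples. The correlation of deviations from the group means of same-numbered arrays was 0.04, which cannot settle pairing with 2 arrays per group. With the replicate number as a block, 14 members rose and 5 fell, with 1 piRNA rise and 3 piRNA falls, 0 falls in germ cell specification and 0 in the oocyte class, and 2643 of all genes passed against 5164.

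Without any 1 of the 4 arrays (Zfp322a RNAi replicate 1 or 2, control replicate 1 or 2), limma with 1 residual degree of freedom called 0 of 18193 genes and so 0 members in every class and direction, while 23 to 29 of 55 members and 5147 to 5769 of all genes had an unadjusted p below 0.05. The change of Zfp322a then lay between -1.67 and -1.27 (adjusted p 0.0793 to 0.113 with limma). Levels near the array medians limit what can be seen of dim members, for which the arrays give no detection call.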

Other observations

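Genes of 2-cell-like cells, a rare state of mES cell cultures that resembles the early embryo, were examined as neighbours of the oocyte and germline programmes. Tcstv3 (0.97 ± 0.08), Sp110 (0.89 ± 0.07), Zfp352 (0.81 ± 0.07) and the translation factor gene Eif1a (0.49 ± 0.07) rose, with adjusted p between 0.00112 and 0.00578 with limma, and a further probe set of Zfp352 rose by 0.88. Other probe sets of Sp110 (-0.16 and -0.02) and Eif1a (0.02) did not pass. Zscan4 genes, which mark that state, were not analysed here.

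Among genes of Sertoli and granulosa cells, Fst, which encodes the activin-binding protein follistatin, rose (0.82 ± 0.07), as did Wt1 (0.54 ± 0.08), while the receptor gene Amhr2 fell (-0.41 ± 0.09). The other probe set of Fst rose further, by 1.89.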
